A study of Mus musculus with 15 samples.

Results

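Expression of 10 genes of lipoprotein assembly and transport was described in mouse liver: the apolipoprotein genes Apoa1, Apoa2, Apoa4, Apoa5, Apob, Apoc1, Apoc3 and Apoe, and Mttp and Lcat, which encode the lipid transfer protein that loads apolipoprotein B and the enzyme that esterifies plasma cholesterol. They were taken by gene symbol from a count table of 18131 genes, by a rule that uses no measured value. All 10 were found, and all 10 passed the filter on low counts that left 13051 genes to test.

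Poly(A) RNA was sequenced from livers that the labels give as those of male C57BL/6 mice aged 6 months, the diet being given to mice 6 weeks old. The titles name 4 groups of 3 libraries. WT NSD is wild type on normal salt (0.4% NaCl), WT HSD is wild type on high salt (8% NaCl), and KO NSD and KO HSD are Sirt3-/- mice on the same respective diets. A further 3 libraries are titled by diet only, 2 on high salt and 1 on normal salt, and their characteristics say wild type; they are called the additional set. The labels give the diet's length as 4 months in the protocol and as 8 weeks in the characteristics. By the title, the study asked whether salt brings on liver inflammation through SIRT3, a mitochondrial deacetylase. The Sirt3 allele, the source of the controls (littermates or not) and whether each library is 1 animal are, like the breeding scheme, not given in the sources used, so the p-values measure the spread between these libraries, which may be technical.

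Libraries held 15726897 to 19539406 expected counts, the fragments that RSEM assigns to each gene. Levels are given as CPM, counts relative to library size with TMM factors over the 15 libraries, or as FPKM, the deposited values scaled by transcript length. Hepatocyte markers were abundant in every library, all 8 listed genes being present at a summed 108400 to 172700 CPM. Sirt3 transcript stood at 43.4 to 68.8 CPM in the 6 libraries labelled knockout and at 49.8 to 83.9 CPM in the 6 wild-type ones; counts per gene cannot show an allele that lacks only some exons, so these mice are called labelled knockouts. In KO NSD 1 and KO NSD 3 the 4 Y-linked genes summed to 2.58 and 1.82 CPM, against 63.9 to 109 CPM in the other 13 libraries, although all are labelled male. In 4 libraries (WT NSD 3, WT HSD 3 and both additional high salt libraries) the effective lengths behind the FPKM values were short, with median deviations of -4.71 to -3.35 bases from the median library, against -2.2 to 5.09 bases in the other 11. The main results that turn on these 6 libraries are given with and without them.

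Apolipoproteins are the protein coat of the particles that carry lipid in blood. In the hepatocyte, microsomal triglyceride transfer protein (Mttp) loads lipid onto apolipoprotein B as it is made, which starts very low density lipoprotein, while apolipoprotein A-I takes up cholesterol to form high density lipoprotein, on which LCAT esterifies it. The smaller exchangeable apolipoproteins move between particles: C-I and C-III slow lipolysis and uptake, A-V promotes lipolysis, and E is the ligand by which remnants are cleared. In mice apolipoprotein A-IV is made in the intestine and also, under fasting and lipid load, in the liver.

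The genes lie in 2 clusters and 4 single loci. On GRCm38.p6, Apoa1 (Entrez ID 11806, chr9:46228630-46230469), Apoc3 (11814, chr9:46233050-46235636), Apoa4 (11808, chr9:46240844-46243458) and Apoa5 (66113, chr9:46268608-46271921) are neighbours. Apoc1 (11812, chr7:19689480-19692659) and Apoe (11816, chr7:19696244-19701310) form the other cluster. The single loci are Apoa2 (11807, chr1:171221564-171226379), Apob (238055, chr12:7977629-8016839), Mttp (17777, chr3:138089855-138143418) and Lcat (16816, chr8:105939551-105943402). All are annotated as protein-coding.

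RefSeq promoters of 300 bases (250 before and 50 after the start site, GRCm38.p6) were matched for 8 of the 10 genes, with 12 start sites. Both strands were searched for CAAAGNNCA (a core of binding sites for the hepatocyte receptor HNF4A), for the TATA box TATAAA and for the E-box CACGTG, and matches of different motifs did not overlap; 6.36%, 13.6% and 7.15% of all 32851 promoters in the table hold them. Apoa1 and Apoa4 are printed because they are neighbours whose levels varied by very different amounts, Apoa5 as the third of that cluster with an entry, and Apob as the long structural gene that went the other way from the short ones in 4 libraries. Capitals mark the matches. Apoa1 (chr9:46228380-46228679, plus strand) holds none of these motifs as written. Variant forms were not searched, so this does not show that such binding sites are absent. Apoa4 (chr9:46240594-46240893, plus strand) holds CAAAGTTCA 182 bases before its start. Apoa5 (chr9:46268358-46268657, plus strand, the first of its 2 start sites) holds the E-box and the TATA box. Apob (chr12:7977427-7977726, plus strand) holds the first motif on the opposite strand, read here as TGCCCTTTG, and a TATA box.
Apoa1: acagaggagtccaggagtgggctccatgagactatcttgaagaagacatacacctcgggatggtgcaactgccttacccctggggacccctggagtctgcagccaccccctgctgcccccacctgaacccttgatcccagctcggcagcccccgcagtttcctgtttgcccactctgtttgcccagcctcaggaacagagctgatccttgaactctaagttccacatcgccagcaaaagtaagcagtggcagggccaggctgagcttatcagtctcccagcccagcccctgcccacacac
Apoa4: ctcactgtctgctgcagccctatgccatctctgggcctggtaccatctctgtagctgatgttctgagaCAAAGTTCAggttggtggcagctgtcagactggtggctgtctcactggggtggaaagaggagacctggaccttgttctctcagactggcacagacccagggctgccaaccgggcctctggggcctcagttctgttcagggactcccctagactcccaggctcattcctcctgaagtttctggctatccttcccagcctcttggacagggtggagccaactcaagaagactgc
Apoa5: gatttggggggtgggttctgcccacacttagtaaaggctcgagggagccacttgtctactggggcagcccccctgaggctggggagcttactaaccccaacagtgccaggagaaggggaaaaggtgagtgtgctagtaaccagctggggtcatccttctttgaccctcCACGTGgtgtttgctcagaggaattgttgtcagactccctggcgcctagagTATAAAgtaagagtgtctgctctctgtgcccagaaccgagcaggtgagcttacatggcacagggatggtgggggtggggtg
Apob: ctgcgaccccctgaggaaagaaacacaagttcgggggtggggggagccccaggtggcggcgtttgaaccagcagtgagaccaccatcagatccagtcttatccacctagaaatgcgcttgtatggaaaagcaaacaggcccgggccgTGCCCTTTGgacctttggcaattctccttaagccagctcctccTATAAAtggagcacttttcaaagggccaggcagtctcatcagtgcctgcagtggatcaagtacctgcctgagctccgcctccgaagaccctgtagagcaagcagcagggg
Of the others, Apoa2 holds the letters TATAAA 212 bases before 1 of its start sites. Apoe holds them 96 bases before 1 of its start sites and, on the opposite strand, 100 bases before it. None of the motifs searched is in the windows of Mttp and Lcat.

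Per transcript length, Apoe, Apoa2, Apoa1 and Apoc1 ranked 2, 3, 4 and 5 among all genes of these livers by median level. Median FPKM over 15 libraries was 17403 for Apoe, 15746 for Apoa2, 12030 for Apoa1 and 9267 for Apoc1. Apoc3 followed at 3651, then Apoa5 at 454, Lcat at 439, Apoa4 at 220, Apob at 183 and Mttp at 55.7. By FPKM, Apoc1 exceeded Apoc3, Apoc3 exceeded Apoa5, and Apob exceeded Mttp in 15 of 15 libraries, and Apoa1 exceeded Apoc1 in 14. Other neighbours in this order did not differ beyond their spread: Apoe exceeded Apoa2 in 9 libraries, Apoa2 exceeded Apoa1 in 11, Apoa5 exceeded Lcat in 9, Lcat exceeded Apoa4 in 10 and Apoa4 exceeded Apob in 8. The 10 genes together took 3.83% to 6.65% of all expected counts per library (median 5.47%) and 7.52% to 12.9% of the summed FPKM.

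**Figure D1:**
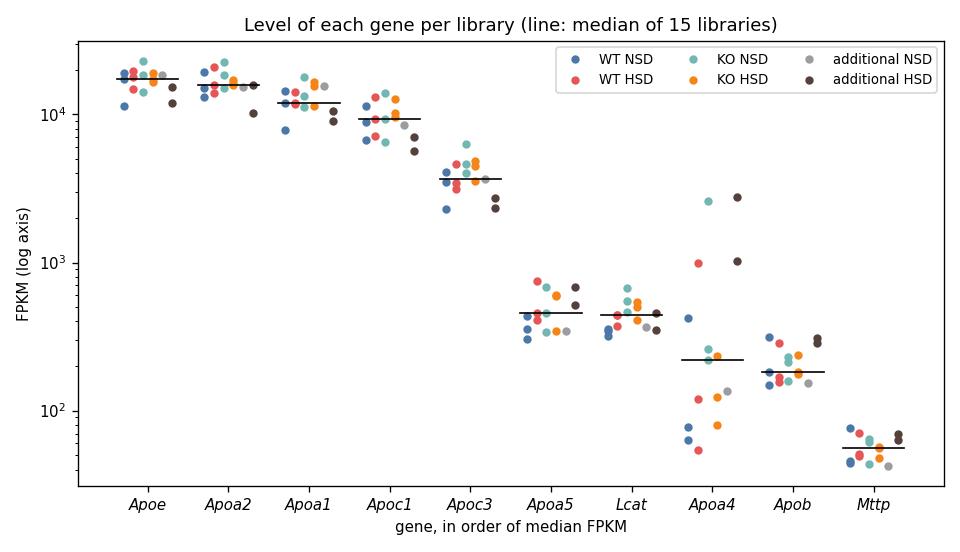
Level of each gene (FPKM, log axis) in each library, coloured by group, with a line at the median of 15 libraries; genes are ordered by that median, from Apoe at 17403 to Mttp at 55.7. Apoa4 spreads over the widest range, from 54.0 to 2772 FPKM.

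High salt changed none of the 10 genes past the test in either genotype. Between WT HSD and WT NSD, 0 of 10 genes and 0% of all 13051 genes passed an adjusted p of 0.05 with edgeR's quasi-likelihood test; 584 of all genes had an unadjusted p under 0.05, and DESeq2 called 9 and limma-voom 0. Between KO HSD and KO NSD the counts were again 0 of 10 genes and 0% of 13051, with 1051 at an unadjusted p under 0.05, 50 (0.383%) called by DESeq2 and 0 by limma-voom. None of the 10 genes was among these calls; DESeq2 gave Apoa4 no adjusted p in any comparison, so it could not be called there. In wild type 1 of the 10 genes had diet groups that did not overlap, beside 8.69% of all genes, and in labelled knockouts 0 of 10, beside 11.7%. Median log2 fold change over the 10 genes was 0.07 in wild type and 0.01 in labelled knockouts, beside 0.018 and -0.002 over all genes.

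Among the structural genes, Apob, whose protein is the backbone of very low density lipoprotein, stood at 2282, 2936 and 4234 CPM in WT NSD and at 2483, 2407 and 3616 CPM in WT HSD. In labelled knockouts it stood at 2088, 3542 and 2837 CPM on normal salt and at 3416, 2740 and 2691 CPM on high salt. The groups overlapped throughout, and the log2 change with salt was -0.15 ± 0.27 (SE) in wild type (95% interval -0.73 to 0.43) and 0.06 ± 0.27 in labelled knockouts (-0.52 to 0.64). Mttp, which loads it, ranged from 163 to 291 CPM over all 15 libraries. Its log2 change with salt was -0.01 ± 0.21 in each genotype (-0.48 to 0.45 and -0.47 to 0.46), the lowest standard error but that of Lcat.

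The apolipoproteins of high density lipoprotein also overlapped between diets. Apoa1 stood at 15140, 13228 and 7193 CPM in WT NSD and at 12219, 14884 and 10195 CPM in WT HSD. In KO NSD it stood at 12039, 18887 and 10395 CPM, and in KO HSD at 11398, 17162 and 16173 CPM. The largest and the smallest of these 12 values are both from normal salt libraries. Its log2 change with salt was 0.07 ± 0.30 in wild type and 0.11 ± 0.30 in labelled knockouts. For Apoa2, the second protein of these particles, it was 0.03 ± 0.25 and -0.10 ± 0.25.

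Of the exchangeable apolipoproteins that act on lipolysis and uptake, Apoe stood at 25976, 24544 and 12751 CPM in WT NSD and at 23525, 26438 and 15774 CPM in WT HSD. It was within 19396 to 26601 CPM in all 6 labelled knockout libraries. The low value in each wild-type group is that of replicate 3, the library of short effective length. Log2 changes with salt were 0.06 ± 0.27 in wild type and 0.03 ± 0.27 in labelled knockouts for Apoe. They were 0.07 ± 0.33 and 0.23 ± 0.33 for Apoc1, and 0.12 ± 0.28 and -0.12 ± 0.28 for Apoc3.

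Apoa5, which promotes triglyceride lipolysis, was the only 1 of the 10 genes whose wild-type groups did not overlap between diets; 3.93% of all genes were higher without overlap in that comparison. It stood at 659, 813 and 821 CPM in WT NSD and at 852, 997 and 1336 CPM in WT HSD. The log2 change was 0.48 ± 0.27 (95% interval -0.11 to 1.06) and did not pass the test (adjusted p = 1, edgeR). Without the 2 libraries of short effective length it was 0.31 ± 0.31. In labelled knockouts the diets overlapped, with 732 to 1282 CPM on normal salt and 747 to 1284 CPM on high salt, and the change was 0.17 ± 0.27. Over the additional set, Apoa5 stood at 907 and 1101 CPM on high salt and at 790 CPM on normal salt.

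**Figure D2:**
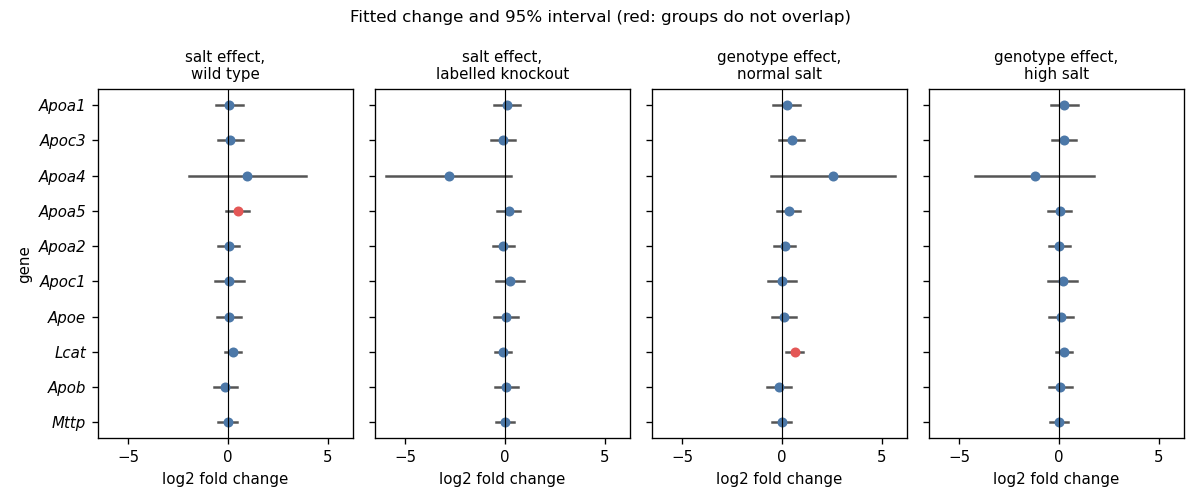
Fitted log2 fold change (point) and 95% interval (line) of each gene in the 4 comparisons of 3 libraries with 3; red points mark genes whose groups do not overlap, Apoa5 with salt in wild type and Lcat with genotype on normal salt. Apoa4 has the widest interval in each panel, from -0.54 to 5.66 with genotype on normal salt.

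Between labelled knockouts and wild type on normal salt, Lcat, whose enzyme esterifies cholesterol on high density lipoprotein, was higher in every labelled knockout library than in every wild-type one. It stood at 849, 680 and 703 CPM in KO NSD and at 464, 547 and 443 CPM in WT NSD. It was the only 1 of the 10 genes whose groups did not overlap, in a comparison where 19.5% of all genes did not (9.98% higher). The log2 fold change was 0.62 ± 0.19 (95% interval 0.21 to 1.04, 1.54-fold), with an adjusted p of 0.132 in edgeR, so it did not pass the test. DESeq2 gave 0.61 ± 0.19 with an adjusted p of 0.0283, in a comparison where it called 661 genes, 5.07% of those it tested. Over 21 alternatives the adjusted p ran from 0.0283 to 0.818, with the log2 change between 0.48 and 0.72.

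Of the 10 genes, 0 passed edgeR's test in that comparison, beside 54 of 13051 genes (0.414%), 31 higher and 23 lower; 1860 genes had an unadjusted p under 0.05, and limma-voom called 29. The 8 hepatocyte markers summed to 158000 to 163300 CPM in KO NSD and to 130900 to 139000 CPM in WT NSD, without overlap. Alb, at 66600 to 114000 CPM over the 15 libraries, was the largest part of that sum. Over these libraries Alb, Ahsg, Fgb and Tat were highest in a KO NSD library. Ttr, Trf, Serpina1a and Cps1 were highest in libraries of other groups. In KO NSD the Kupffer cell and macrophage markers summed to 374.5 to 1159 CPM, against 209 to 281 CPM in WT NSD, all 12 of 12 being in the table. The 8 neutrophil markers summed to 72.5 to 210 CPM against 8.39 to 20.5 CPM. S100a8, S100a9, Retnlg, Mmp8, Ngp and Camp were highest in KO NSD 1. Ly6g and Cxcr2 were highest in KO HSD 1 and KO HSD 3, at 7.49 and 9.87 CPM. The 6 female-biased liver genes summed to 78.6 to 3148 CPM against 2.83 to 6.72 CPM, highest in KO NSD 1 and KO NSD 3. The 6 male-biased liver genes summed to 93.5 to 4673 CPM against 6137 to 16910 CPM. On high salt the female-biased genes summed to 285, 59.1 and 3.50 CPM in KO HSD 1, 2 and 3, against 3.93 to 6.95 CPM in WT HSD. The male-biased genes summed to 735, 2710 and 12590 CPM against 6259 to 17500 CPM. The part of these markers in the Lcat difference, or in other comparisons with labelled knockouts, was not tested. In bulk tissue fewer cells of a type and less RNA per cell cannot be told apart. Without KO NSD 1 and KO NSD 3, the 2 libraries with few Y-linked counts, the log2 change of Lcat was 0.48 ± 0.27 (adjusted p = 0.818), and 0 genes of the table passed in edgeR. That fit sets KO NSD 2 alone against 3 wild-type libraries and takes its spread from the other groups. On high salt Lcat stood at 691, 773 and 595 CPM in KO HSD and at 622, 649 and 453 CPM in WT HSD, which overlap, with a log2 change of 0.26 ± 0.19. The difference between the genotypes' salt effects was -0.37 ± 0.27 (adjusted p = 0.958), so the 2 diets were not shown to differ.

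The other genes overlapped between genotypes on both diets. On normal salt Apoc3, an inhibitor of lipolysis, had the next largest log2 change after Apoa4 and Lcat, 0.47 ± 0.28 (95% interval -0.14 to 1.08), with 2889, 2147 and 2157 CPM in KO NSD and 2182, 1946 and 1094 CPM in WT NSD. Fitted without the short libraries WT NSD 3 and WT HSD 3, it was 0.21 ± 0.22. Log2 changes of Apoa1, Apoa2, Apoa5, Apob, Apoc1, Apoe and Mttp lay between -0.15 and 0.33. Without the same short libraries, both wild type, Apoa1 went from 0.22 to -0.05, Apoa2 from 0.13 to -0.06 and Apoe from 0.11 to -0.17. Apob went from -0.15 to 0.10, and Apoc1, Apoa5 and Mttp were then at -0.24, 0.37 and 0.17, none past the test. On high salt 0 of 10 genes and 0% of 13051 passed, with 603 at an unadjusted p under 0.05, 29 called by DESeq2 and 0 by limma-voom. Apart from Apoa4, log2 changes there lay between -0.02 and 0.26, and 0 of the 10 genes had groups that did not overlap, beside 8.03% of all genes. Without the short libraries these changes lay between -0.17 (Apoa2) and 0.28 (Apob).

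The salt effects of the 2 genotypes were compared directly by the interaction. Of the 10 genes, 0 passed, beside 0% of 13051, with 706 genes at an unadjusted p under 0.05, 10 called by DESeq2 and 0 by limma-voom. Without Apoa4, the differences lay between -0.37 (Lcat) and 0.21 (Apob), with standard errors of 0.27 to 0.46.

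Apoa4 varied more than any other of the 10 genes, and mostly within groups. It stood at 138, 119 and 664 CPM in WT NSD, and at 209, 97.4 and 1487 CPM in WT HSD. In KO NSD it stood at 343, 4671 and 407 CPM, and in KO HSD at 210, 415 and 142 CPM. In every group but KO HSD, 1 library was thus at least 3 times as high as the other two. The highest, KO NSD 2, keeps the Y-linked counts that the other KO NSD libraries lack. Over the 12 libraries Apoa4 spanned 5.58 on the log2 scale, and its SD within groups, 1.66, was above that of 98.7% of tested genes (median 0.32). For the other 9 genes that SD ran from 0.21 (Lcat) to 0.46 (Apoc1), so Apoa1, the neighbour in the cluster whose promoter is printed above with that of Apoa4, varied by 0.42 within groups.

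None of the Apoa4 differences passed the test, and single libraries set their size. Between KO NSD and WT NSD the log2 change was 2.56 ± 1.37 (adjusted p = 0.466), with 0.29 ± 1.14 without KO NSD 2, 3.92 ± 1.38 with KO NSD 2 alone and 3.81 ± 1.39 without the short libraries. With salt it was -2.82 ± 1.38 in labelled knockouts (adjusted p = 0.677), and -0.56 ± 1.14 without KO NSD 2. With KO NSD 2 as the only KO NSD library, this salt effect was -4.18. With salt in wild type it was 0.97 ± 1.31, which became -1 ± 1.32 without WT HSD 3 and 2.21 ± 1.54 without WT NSD 3, and was 0.24 ± 1.28 without both. Between KO HSD and WT HSD it was -1.23 ± 1.31, and 0.74 ± 1.19 without WT HSD 3 and WT NSD 3. The difference between salt effects was -3.79 ± 1.89 (adjusted p = 0.904), with -1.52 ± 1.53 without KO NSD 2, -1.81 ± 1.71 without WT HSD 3 and -3.07 ± 1.69 without both short libraries.

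**Figure D3:**
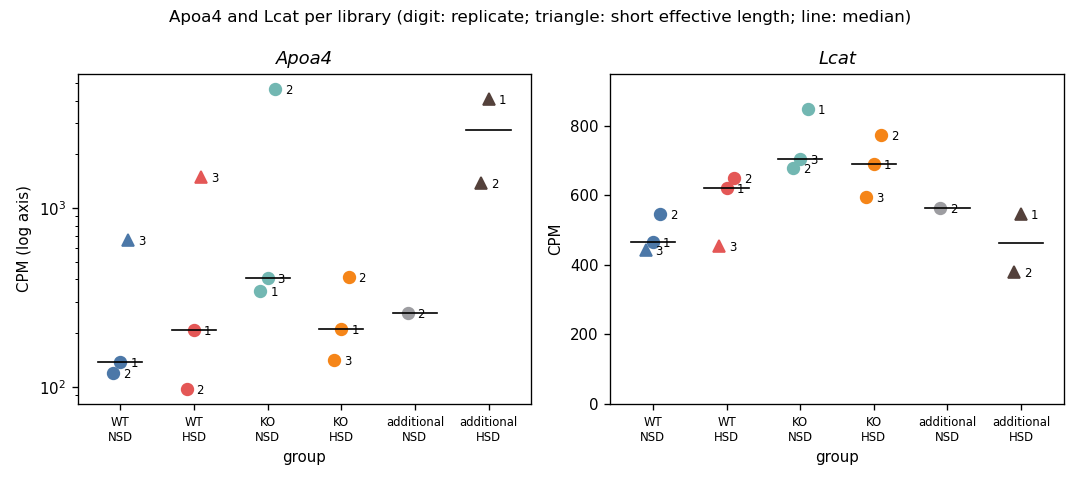
CPM of Apoa4 (left, log axis) and Lcat (right) in each library by group, with the replicate digit beside each point, triangles for the 4 libraries of short effective length and a line at the group median. Apoa4 is set apart by single libraries such as KO NSD 2 at 4671 CPM, whereas the 3 KO NSD values of Lcat, 680 to 849 CPM, all lie above the 3 WT NSD values.

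Since Apoa4 is also an intestinal transcript, the enterocyte markers are given beside it. Of 8 listed, 5 were in the table; Alpi was at 0 in all libraries, Krt20 and Lct reached at most 0.0582 and 0.0994 CPM, and Vil1 at most 0.757 CPM. Fabp2, which liver also expresses, ranged from 18.5 to 79.2 CPM and was highest in WT HSD 1, where Apoa4 stood at 209 CPM. The enterocyte sum was 70.3 CPM in KO NSD 2 and 22.9 CPM in WT HSD 3, both high in Apoa4.

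Genes most like Apoa4 in pattern were ranked by Spearman's rho over the 12 libraries, among 13050 other genes. They were Arf6, a small GTPase (0.96), Ywhag, a 14-3-3 protein (0.92), Ppp2r5e, a phosphatase subunit (0.91), Dnajb9, a chaperone of the endoplasmic reticulum (0.89), and Sptlc1, a subunit of serine palmitoyltransferase (0.88). They share libraries, depth and scaling with Apoa4, and the values are descriptions. Their ranges were narrower, 0.46 to 2.23 on the log2 scale against 5.58. Dnajb9, the widest, stood at 108 CPM in WT HSD 3, 83.0 in WT NSD 3 and 66.1 in KO NSD 2, and at 23.1 to 62.6 CPM in the other 9. In the additional set, which the ranking did not use, Dnajb9 stood at 33.6 and 41.4 CPM in the high salt libraries, where Apoa4 stood at 4088 and 1376 CPM, and at 35.4 CPM in the normal salt library, where Apoa4 stood at 258 CPM. Within the 10 genes, rho with Apoa4 was highest for Apob (0.63) and Mttp (0.56) and lowest for Apoa2 (-0.71).

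In the 4 libraries of short effective length, 5 of the 10 genes were lower than in all the other 11 libraries, and 1 was higher. Apoe stood at 12751 (WT NSD 3), 15774 (WT HSD 3), 16070 and 11527 CPM (additional HSD), against 19396 to 26601 CPM in the other 11 (median 24544). Apoa1 stood at 7193, 10195, 7719 and 8310 CPM, against 10395 to 18887 CPM (median 14884), a narrow gap. The medians of the 4 were 0.58 and 0.54 times those of the 11. The ratio was 0.72 for Apoa2, 0.62 for Apoc1 and 0.54 for Apoc3, again without overlap. Apob was at 4234, 3616, 3577 and 3545 CPM against 2088 to 3542 CPM, a ratio of 1.34. Its ranges were only just apart, 3544.9 CPM in additional HSD 2 against 3541.9 CPM in KO NSD 2, and they overlapped under RLE scaling. Over all 13864 genes tested in 15 libraries, 5.99% were lower and 5.84% higher without overlap. Apoa4 (6.81), Apoa5 (1.18), Mttp (1.12) and Lcat (0.69) overlapped.

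The 5 genes that were lower are the 5 with the shortest transcripts of the 10. The lengths implied by counts and FPKM were 407 bases for Apoc1, 495 for Apoa2, 496 for Apoc3, 975 for Apoa1 and 1253 for Apoe, and 14218 for Apob, the longest. Over all genes with a median of at least 500 counts, the median log2 difference of the 4 libraries from the other 11 was -0.79 for 72 genes up to 500 bases and -0.55 for 334 genes up to 1000 bases. It was -0.26 for 1022 genes up to 2000 bases, 0.005 for 1569 genes up to 4000 bases and 0.27 for 861 longer genes. Of the 72 shortest, 98.6% were lower. For Apoe itself the implied length was 1187 to 1188 bases in the 4 libraries and 1238 to 1264 in the other 11. For Apoc3 it was 502 to 503 against 491 to 500. Both deviated by more bases than the median gene, Apoe in the same direction and Apoc3 in the opposite one. With a term for these libraries in the fit of 12, none of the 10 genes passed in the 5 comparisons. With genotype on normal salt Lcat was then at 0.51 ± 0.17 (adjusted p = 0.183) and Apoa4 at 3.96 ± 1.13 (adjusted p = 0.165), and on high salt Apoa4 was at 0.58 ± 1.07. The part of transcript length itself was not tested. All 10 ratios kept their side of 1 under 3 other scalings, but the separation did not: by library totals alone 1 gene was lower without overlap (Apoc3, ratio 0.63) and 1 higher (Apob, 1.67), beside 1.95% and 14.6% of all genes. These scalings were chosen after seeing the data.

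**Figure D4:**
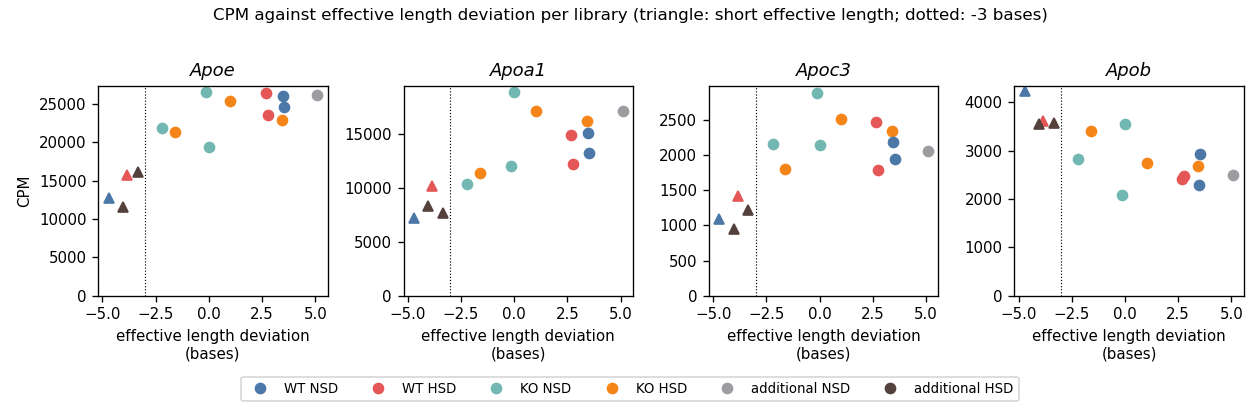
CPM of Apoe, Apoa1, Apoc3 and Apob in each library against the library's effective length deviation (bases from the median library), coloured by group; triangles are the 4 libraries left of the dotted line at -3 bases. The triangles lie below the circles for Apoe, Apoa1 and Apoc3. For Apob they lie above them, but the lowest triangle (3544.9 CPM) and the highest circle (3541.9 CPM) nearly coincide.

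WT NSD 3 and WT HSD 3 are balanced between the wild-type diets, and leaving out both left the salt effects of the 10 genes between -0.11 and 0.32 on the log2 scale, none past the test, while 30 genes of the table passed. In the additional set both high salt libraries are short and the normal salt one is not, so diet and effective length cannot be told apart there. In that set Apoe stood at 16070 and 11527 CPM on high salt and at 26157 CPM on normal salt, a log2 change of -0.92 ± 0.41. For Apoa1 it was -1.10 ± 0.43, for Apoc3 -0.92 ± 0.40, for Apoc1 -0.84 ± 0.47 and for Apoa2 -0.64 ± 0.39. For Apob it was 0.51 ± 0.40, and for Apoa4 3.4 ± 2.28, with 4088 and 1376 CPM against 258 CPM. None of the 10 passed (smallest adjusted p = 0.412, edgeR; the single library takes its spread from the other groups), beside 3 of 13864 genes (0.0216%); 1673 genes (12.1%) had an unadjusted p under 0.05, 3 of them among the 10. Of the 10, 4 were higher and 6 lower in both high salt libraries, beside 37.6% and 38.9% of all genes (76.5% in all). Adipocyte markers summed to 68.8 CPM in the normal salt library of this set and to at most 13.4 CPM elsewhere. Cfd and Cidec were highest in that library, at 52.1 and 11.7 CPM. Fabp4 was highest in KO NSD 2, and Adipoq and Plin1 reached at most 0.0555 and 0.0489 CPM in any library. The part of these markers was not tested. Between the 2 wild-type sets, the salt effect of Apoa1 differed by -1.17 ± 0.53 (adjusted p = 0.379), and none of the 10 differences passed. With library totals alone the median of all genes in the additional set moved from 0.01 to 0.44.

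**Figure D5:**
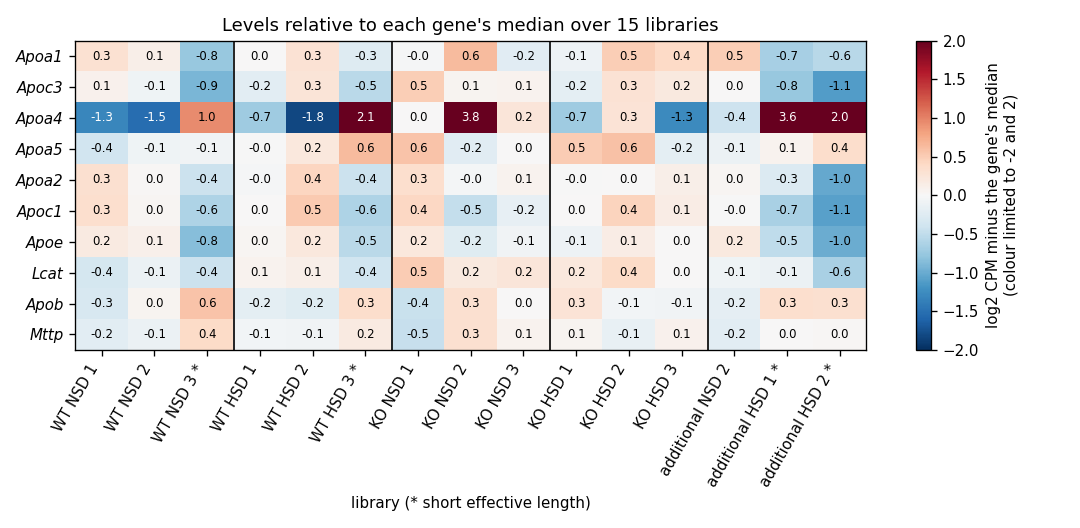
Log2 CPM of each gene in each library minus that gene's median over 15 libraries; libraries are ordered by group, and asterisks mark the 4 of short effective length. Apoa1, Apoc3, Apoa2, Apoc1 and Apoe are low together in the marked libraries, while Apoa4 is high there and in KO NSD 2.

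Beyond these genes, 74 others of the pathway were listed by role, and 73 were tested (Apod was not, with at most 6.07 counts). None passed in any of the 6 comparisons (0 of 73 each). The numbers at an unadjusted p under 0.05 were 4 with salt in wild type (4.47% of all genes tested), 7 with salt in labelled knockouts (8.05%) and 13 with genotype on normal salt (14.3%). They were 4 with genotype on high salt (4.62%), 3 in the interaction (5.41%) and 10 in the additional set (12.1%).

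The lowest p-values were those of a regulator and of a secretion factor, on normal salt between genotypes. Mlxipl, which encodes the carbohydrate sensor ChREBP, stood at 260, 190.5 and 215 CPM in KO NSD and at 478, 368 and 465 CPM in WT NSD. The log2 change was -0.97 ± 0.20, with an adjusted p of 0.0585 in edgeR and 0.000261 in DESeq2. Tm6sf2, which promotes lipidation of very low density lipoprotein, stood at 85.7, 72 and 63.2 CPM in KO NSD and at 39.2, 41.7 and 42.6 CPM in WT NSD. Its log2 change was 0.85 ± 0.19, with an adjusted p of 0.0675 in edgeR and 0.00287 in DESeq2. In both genes the groups do not overlap, as in 19.5% of all 13051 genes. Of the 73 pathway genes, 8 were higher and 8 lower without overlap there. With KO NSD 2 as the single labelled knockout library the changes were -1.21 ± 0.31 for Mlxipl and 0.80 ± 0.25 for Tm6sf2, with adjusted p of 0.378 and 0.474 in edgeR.

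Other genes of each role had larger adjusted p in edgeR. In assembly, Aadac, a lipase that mobilises stored triglyceride, had a log2 change of -0.52 ± 0.16 with genotype on normal salt (adjusted p = 0.133); DESeq2 gave an adjusted p of 0.014. On high salt the change was -0.35 ± 0.16. Among receptors and uptake, Mylip, whose product degrades the LDL receptor, had 0.85 ± 0.37 with genotype on normal salt. Scarb1, the HDL receptor, had 0.53 ± 0.19 with salt in labelled knockouts. Among lipase regulators, Angptl4, an inhibitor of lipoprotein lipase, had 1.3 ± 0.5 with salt in labelled knockouts. Of the HDL and sterol transporters, Abcg5 and Abcg8, which form the sterol exporter into bile, had 0.75 ± 0.34 and 0.78 ± 0.30 with salt in wild type and 0.83 ± 0.34 and 1.03 ± 0.30 in labelled knockouts. Neither passed the test, and neither was higher on high salt in the additional set. There Abcg5 stood at 95.27 and 43.83 CPM on high salt and at 97.05 CPM on normal salt. Abcg8 stood at 110.6 and 48.31 CPM against 113.4 CPM. Abcg1 had 0.79 ± 0.31 with genotype on normal salt.

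Among regulators with salt, Ppara, the fatty acid receptor, had 0.62 ± 0.18 and Nr1h4, the bile acid receptor FXR, 0.40 ± 0.15 in wild type. Neither passed the test, and neither was higher on high salt in the additional set. There Ppara stood at 192.7 and 139.9 CPM on high salt and at 201 CPM on normal salt. Nr1h4 stood at 116.1 and 134.7 CPM against 134.8 CPM. In labelled knockouts Mlxipl had 0.78 ± 0.20 (adjusted p = 0.428 in edgeR and 0.035 in DESeq2), Nr0b2, a repressor induced by FXR, 0.90 ± 0.27, and Tm6sf2 -0.69 ± 0.19. With KO NSD 2 as the only KO NSD library, the change of Mlxipl was 1.02. The salt effects of the genotypes differed by 0.98 ± 0.29 for Mlxipl, 1.2 ± 0.38 for Nr0b2 and -1.50 ± 0.52 for Mylip, with an adjusted p of 0.835 each. With genotype on normal salt, Onecut1, a hepatocyte factor, had 1.38 ± 0.49. On high salt Apon had 0.45 ± 0.16, Nr0b2 0.71 ± 0.27 and Tm6sf2 0.44 ± 0.19. In the additional set Lipg, an endothelial lipase, had -2.03 ± 0.64, Gpihbp1, which anchors lipoprotein lipase, -1.45 ± 0.56, Apom -0.79 ± 0.28 and Tm6sf2 0.76 ± 0.30. There Cideb had -0.93 ± 0.38, Lrpap1 -0.51 ± 0.21, and the regulators Cebpa and Creb3l3 -0.76 ± 0.34 and -0.82 ± 0.38. Among the 73 genes the smallest adjusted p in that set was 0.412 (edgeR). Its 2 high salt libraries are short, so diet and effective length cannot be told apart for these genes either. Its lone normal salt library had adipocyte markers at 68.8 CPM, whose part was not tested. Lipg stood at 27.3 CPM in that library and at most at 14.4 CPM (WT NSD 3) in any other.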

How the data were processed

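Poly(A) RNA of 15 mouse liver libraries was measured by sequencing. The deposited files hold expected counts, as a single table and again per library beside FPKM. Bowtie2 2.2.5, RSEM 1.2.8 and mm10 are named per the submitters' processing notes. Annotation and strandedness were not given in the sources used here, so reads of overlapping antisense genes cannot be told apart. No sample column was left unmapped (0), and no columns were identical (highest correlation 0.977). Of 18131 gene IDs, 18009 matched RefSeq on GRCm38.p6, which supplied positions and promoters.

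Counts were rounded to whole numbers and fitted with edgeR 4.0.16 in R 4.3.3 (TMM, filterByExpr, robust quasi-likelihood F test) as 4 group means over 12 libraries, which share 1 estimate of the spread (biological coefficient of variation 0.272). The additional set was fitted with all 15 libraries and 13864 genes. Adjustment was by Benjamini-Hochberg over all genes tested, and 0.05 was the threshold. Every adjusted p comes from edgeR unless another tool is named, and values after ± are standard errors. An exact permutation test of 3 libraries against 3 has a smallest p of 0.1. Effective length per library came from counts, FPKM and totals over 1584 genes with at least 500 counts, and libraries more than 3 bases below the median were called short.

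The 10 genes, the role and marker lists and the tests were chosen with earlier results of these data known. All 10 genes are named; of other pathway genes, the rule took those past the threshold and the 2 of smallest p per role and comparison, and the text prints those with an unadjusted p under 0.05, except for a result that is not reported here. Genes like Apoa4 are the 5 of highest Spearman's rho. Alternatives were RLE or no scaling, other filters, DESeq2 1.42.0, limma 3.58.1 (voom, and log2(FPKM + 1)), a replicate block, a term for the short libraries, other sets of libraries and each library left out; the 6-library fits with a block, the fits without short libraries and the scalings of the split were added after seeing the data. Figures used matplotlib 3.10.9.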

Additional observations from a re-analysis of the deposited data

How the results depend on the processing

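For the 10 genes, 1088 of 1140 alternative log2 changes stayed on the same side of the threshold and within 1 standard error of the reported value, 45 moved further, 1 crossed the threshold and 6 (Apoa4 in DESeq2) had no adjusted p. The sign changed in 148, of which 1 had a reported value larger than its standard error (Apoa5 with genotype on normal salt, 0.33, which was -0.07 without KO NSD 1 and 3). The crossing value was that of Lcat with genotype on normal salt under DESeq2, which made 1 of the 10 genes called.

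Counts of genes called over the whole table depended on the tool and on single libraries; the causes were not tested. With genotype on normal salt (54 called), the count was 27 with at least 10 counts in every library, 661 with DESeq2, 29 with limma-voom, 104 with limma on FPKM, 106 with all 15 libraries fitted, 175 with only the 6 libraries compared and 0 with KO NSD 2 as the only labelled knockout library. DESeq2 called 9 genes with salt in wild type, 50 in labelled knockouts, 29 with genotype on high salt, 10 in the interaction and 30 in the additional set. In the additional set (3 called) the stricter filter gave 0, limma-voom 6 and limma on FPKM 8, which also gave 3 with salt in labelled knockouts. Without the short libraries, 30 genes passed with salt in wild type and 6 in the interaction. With library totals alone the median log2 change of all genes moved from -0.02 to -0.17 in the interaction.

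Leaving out each library in turn gave 0 to 10 genes with salt in wild type (10 without WT HSD 3, 3 without WT NSD 3), 0 to 21 in labelled knockouts (21 without KO NSD 2), 5 to 420 with genotype on normal salt, 0 to 7 with genotype on high salt (7 without KO HSD 3), 0 to 8 in the interaction (8 without KO NSD 2) and 1 to 1 in the additional set. On normal salt the count was 5 and 6 without WT NSD 2 and 1, 35 without WT NSD 3, 11 and 12 without KO NSD 1 and 3, and 420 without KO NSD 2. The lone additional normal salt library could not be left out.

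The labels do not say what a shared replicate number means, and the main fit assumed no pairing. Deviations of log2 CPM from the group means, over all tested genes, were correlated between same-numbered libraries. These correlations were 0.09 to 0.45 with salt in wild type and -0.10 to 0.14 in labelled knockouts. The value of 0.45 is that of WT HSD 3 with WT NSD 3, both of short effective length. With genotype they were 0.03 to 0.10 on normal salt and -0.20 to 0.07 on high salt. In these comparisons 2, 1, 2 and 0 of 3 numbers correlated best with themselves. With 3 libraries a group, these values cannot show whether the numbers pair samples. With a replicate block 98 genes passed with genotype on normal salt and 1 with salt in labelled knockouts. With only the 6 libraries and the block, 203 genes passed with genotype on normal salt, 1 with salt in wild type and 1 with salt in labelled knockouts; 0 of the 10 genes passed under either. In that last fit Mlxipl passed with genotype on normal salt (-0.99 ± 0.18, adjusted p = 0.0452).

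By CPM of the library total, which does not correct for length, ranks became 2 for Apoa1, 3 for Apoa2, 5 for Apob, 6 for Apoc3, 7 for Apoa5, 8 for Lcat and 9 for Apoa4. The members' median share was 9.52% by FPKM.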
